A study of Homo sapiens with 3 samples.

Results

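SCARNA, SNORA and SNORD genes encode the small RNAs that guide the chemical modification of other RNAs in the nucleolus and the Cajal body. They were followed in A549, an established human lung adenocarcinoma cell line, on 3 Agilent 1-colour arrays, with 1 array for each condition. The mock cells received the transfection reagent alone, and the other cells received *miR-139-5p* or *miR-139-3p* with the same reagent, at 10 nM as the methods state for all precursors. These are the arms of one miRNA precursor, and the time from transfection to RNA extraction for the arrays is not given in the sources used here. Members were selected on their name: a probe belonged when its RefSeq accession mapped to a symbol starting with SCARNA, SNORA or SNORD, and host genes did not belong. The group itself was chosen by earlier results of the same arrays, with the log2 fold changes of both comparisons known, so all values below are descriptions and no test supports them. The rule found 304 genes with 306 probes, out of 47753 names on the array: 21 SCARNA, 95 SNORA and 188 SNORD genes. RefSeq lists 573 such symbols, and those without a probe were not analysed here.

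SNORD genes encode box C/D RNAs, which guide the methylation of riboses in ribosomal RNA together with the methyltransferase FBL. SNORA genes encode box H/ACA RNAs, which guide the conversion of uridine to pseudouridine with the synthase DKC1. SCARNA genes encode RNAs of the Cajal body, which guide the same reactions on spliceosomal RNAs and can carry either kind of box or both. Most of these RNAs lie in introns of host genes and are trimmed out of the spliced intron, and the mature RNAs usually have no poly(A) tail. The labelling kit primes on poly(A). Whether the signal of a probe stood for mature RNA, for a polyadenylated form or for the intron of a host transcript was not tested.

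The transfected RNAs are shown because they define the conditions. Their seeds, bases 2 to 8, are in capitals, and both come from the minus strand of GRCh38.p14 in RefSeq, the 5p arm at chr11:72615102-72615124 and the 3p arm at chr11:72615066-72615088.
hsa-miR-139-5p: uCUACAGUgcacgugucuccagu
hsa-miR-139-3p: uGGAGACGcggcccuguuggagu

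Some of these guide RNAs also contain annotated miRNA hairpins. Of 1562 hairpins in the RefSeq table, 7 overlapped a member, and all 7 lay wholly inside it. The hairpins inside *SCARNA16* and *SNORA36B*, which rose after *miR-139-3p*, and inside *SNORA81*, which did not pass the threshold, are shown as examples from both sides of the threshold. Capitals mark the mature miRNA arms. *MIR6516* is at chr17:77089417-77089493 on the plus strand, *MIR664A* at chr1:220200546-220200619 on the minus strand and *MIR1248* at chr3:186786676-186786777 on the plus strand (GRCh38.p14).
MIR6516: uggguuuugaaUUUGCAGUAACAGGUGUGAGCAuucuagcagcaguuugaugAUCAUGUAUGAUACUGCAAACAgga
MIR664A: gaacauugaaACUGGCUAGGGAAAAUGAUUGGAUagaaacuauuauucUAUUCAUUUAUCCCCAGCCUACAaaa
MIR1248: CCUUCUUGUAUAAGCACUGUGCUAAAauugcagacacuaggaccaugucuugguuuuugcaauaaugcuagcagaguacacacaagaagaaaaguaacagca

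Each signal was divided by the 75th percentile of its array, so that 1 is the signal at that percentile. A log2 fold change is the difference of 2 such log2 signals, and "rose" and "fell" mean past 0.5 in either direction on that scale. Where a pair of log2 fold changes follows the signals of the 3 arrays, the value after *miR-139-5p* comes first, as in the signals. Where a probe was not well above background on 1 of the 2 arrays, the change is a bound, written as at least N-fold. It was taken against the probe's signal on the dim array, or against the lowest signal called well above background there, whichever was higher. As each condition had 1 array, there is no replicate check, no p-value is given, and precision is limited by the array number. Between probes of one gene the median SD of the log2 fold change was 0.28 after *miR-139-3p* and 0.15 after *miR-139-5p*, and between repeat spots of a probe it was 0.05 or 0.06 on an array. Mock and *miR-139-5p* were on one slide and *miR-139-3p* was on another, so the slide and *miR-139-3p* cannot be told apart. Both comparisons share the mock array, and no array held cells transfected with a control RNA. The effect of an arm and that of any transfected RNA thus cannot be told apart. The epithelial markers *KRT8*, *KRT18*, *EPCAM* and *CDH1* were well above background on all 3 arrays, and of 7 markers of other cell types found on the array, *PECAM1*, *COL3A1* and *DCN* were not on any. *CDH5*, *COL1A1* and 2 of 5 *PTPRC* probes were well above background on all 3 arrays, and *CD3E* was on the *miR-139-3p* array. The signal of *CDH5* was 0.155 in mock cells, 0.129 after *miR-139-5p* and 0.310 after *miR-139-3p*, and that of *COL1A1* 0.428, 1.14 and 0.280. The 2 *PTPRC* probes had a log2 fold change of 1.26 after *miR-139-3p* and 0.31 after *miR-139-5p*. After *miR-139-3p* *EPCAM* was at 0.97, *CDH1* at 0.36, *KRT8* at -0.74 and *KRT18* at -0.84, and after *miR-139-5p* they were at 0.17, -0.54, -0.85 and -0.77. Their part in the results was not tested. In RNA from a whole culture, fewer cells and less RNA per cell cannot be told apart.

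After *miR-139-3p* most of the measured members had higher signals than in mock cells, with the SCARNA class highest. Of 257 members with a value, 164 rose (63.8%) and 5 fell, where 35.4% of all 24360 names with a value rose and 21.8% fell. The median log2 fold change was 0.72 over the 238 members well above background on both arrays and 0.09 over all names. The remaining members were accounted for as 31 too dim on both arrays and 16 marked as outlier spots. Among those with a value, 19 rested on a bound.

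The order of the classes was SCARNA, SNORA, SNORD. In the SCARNA class 19 of 21 rose and 0 fell, with a median of 1.68 or 3.21-fold. In the SNORA class 62 of 86 rose and 1 fell, with a median of 1.05 or 2.08-fold. In the SNORD class 83 of 150 rose and 4 fell, with a median of 0.55 or 1.46-fold, and with the normexp correction 31 rose and 2 fell. Other genes with a noncoding RefSeq accession rose in 870 of 1827 cases (47.6%) with a median of 0.42, while protein-coding genes had a median of -0.15, so all 3 class medians lay above both. Without the tandem copies of imprinted regions described further on, 48.3% of SNORD genes rose and their median was 0.46, near the values of other noncoding genes. Just inside and outside the threshold lay *SNORD64* at 0.53 and *SNORD47* at 0.48.

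After *miR-139-5p* the same order of classes appeared at a smaller size. Of 262 members with a value, 77 rose (29.4%) and 13 fell, where 10.7% of all 22555 names rose and 12.1% fell. The median was 0.24 over 243 members well above background on both arrays, against 0.01 over all names. In the SCARNA class 14 of 21 rose and 3 fell, with a median of 0.76. In the SNORA class 33 of 90 rose and 0 fell, with a median of 0.41, and with the normexp correction 19 rose, with a median of 0.25. In the SNORD class 30 of 151 rose and 10 fell, with a median of 0.17, but with the normexp correction 5 rose and 2 fell. Other noncoding genes rose in 8.33% of cases with a median of -0.03, below the median of each class.

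**Figure D1:**
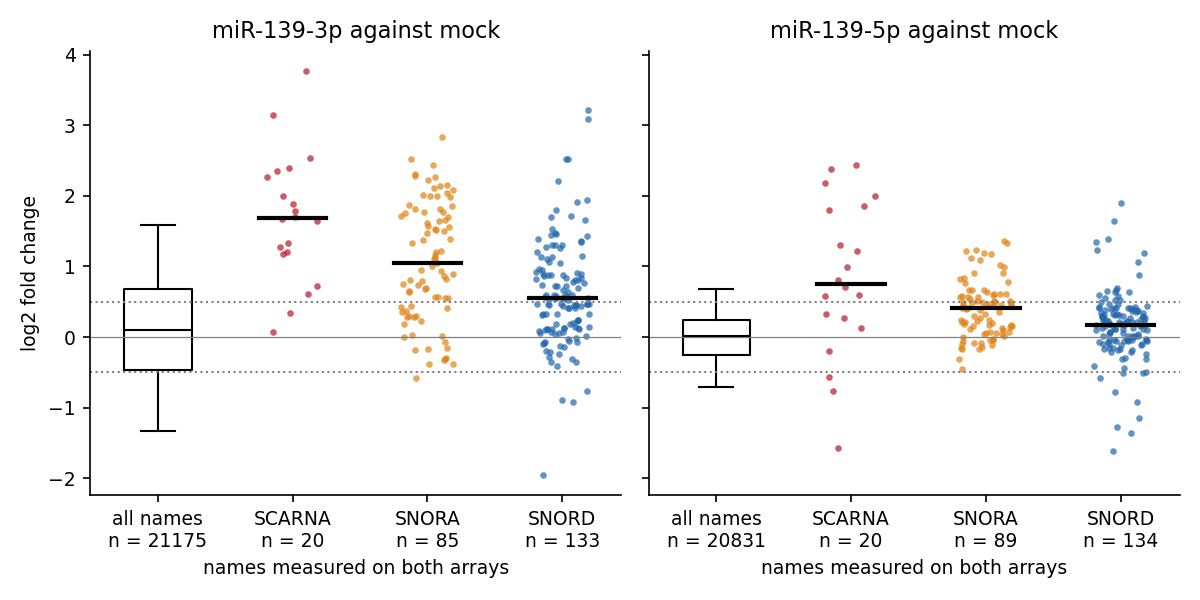
Log2 fold change of members well above background on both arrays, by class, for each transfection against mock; black bars are medians, and the box gives the median, quartiles and central 90% of all names. After miR-139-3p the medians are 1.68, 1.05 and 0.55 for SCARNA, SNORA and SNORD against 0.09 for all names, and after miR-139-5p they are 0.76, 0.41 and 0.17 against 0.01.

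Over one set of genes, the median level of each class was lowest on the mock array and highest on the *miR-139-3p* array. For the 236 members well above background on all arrays, the median SCARNA signal over 20 genes was 0.738 in mock cells, 1.45 after *miR-139-5p* and 1.87 after *miR-139-3p*. For 85 SNORA genes it was 1.19, 2.04 and 2.97, and for 131 SNORD genes 0.425, 0.503 and 0.760, in the same order of arrays. The *miR-139-3p* array held the highest of the 3 signals for 183 of the 236 genes, and the mock array held the lowest for 164. These counts were not made over all names, of which 35.4% rose after *miR-139-3p* and 10.7% after *miR-139-5p*.

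Brightness was related to the changes over all names, so the members were set beside names of like signal. After *miR-139-3p* 19.4% of the names brighter than the median name rose, and 44.4% of the dimmer ones. Of the brighter members 76 of 126 rose (60.3%), and of the dimmer ones 72 of 112 (64.3%). Among the brighter ones 12 of 13 SCARNA genes, 48 of 66 SNORA genes and 16 of 47 SNORD genes rose. After *miR-139-5p* 41 of 127 brighter members rose (32.3%) against 8.03% of brighter names, but of the brighter SNORD genes only 4 of 47 rose (8.51%), close to that background. Of the dimmer members 22 of 116 rose (19.0%) against 11.8% of dimmer names, and of the dimmer SNORD genes 14 of 87 (16.1%). With the normexp background correction, which shrinks changes of dim spots, 96 members rose after *miR-139-3p* (37.5%, against 11.8% of all names) and 34 after *miR-139-5p* (13.0%, against 2.65%). All of these had also risen without it. Of the SCARNA genes that rose, 17 of 19 and 10 of 14 also rose with the correction after *miR-139-3p* and *miR-139-5p*, of the SNORA genes 48 of 62 and 19 of 33, and of the SNORD genes 31 of 83 and 5 of 30. Of the members that fell, 3 of 5 and 3 of 13 also fell with it.

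**Figure D2:**
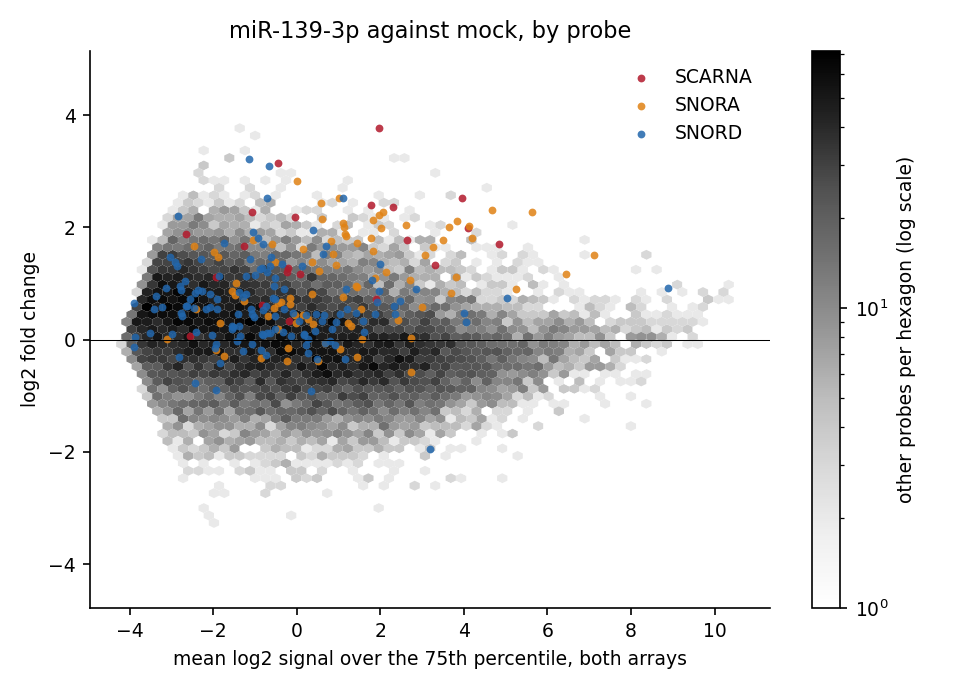
Log2 fold change after miR-139-3p against the mean log2 signal of both arrays, for each probe well above background on both; grey hexagons count the other probes on a log scale and coloured points are the members. Members spread upward over the whole range of signal, and 76 of the 126 members brighter than the median name rose.

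The Cajal body RNAs had the highest class median in both comparisons. *SCARNA20* lies within the span of *USP32* and had a signal of 1.06 in mock cells, 3.83 after *miR-139-5p* and 14.4 after *miR-139-3p*. This was the highest log2 fold change of any member after *miR-139-3p*, 3.77, and it was 1.86 after *miR-139-5p*. *SCARNA11*, within *CHD4*, had signals of 0.245, 1.28 and 2.16 in the same order, with log2 fold changes of 3.14 after *miR-139-3p* and 2.38 after *miR-139-5p*. Under the alternative settings its lowest values were 1.81 and 1.23. Both RNAs were lowest in mock cells and highest after *miR-139-3p*.

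*SCARNA14* and *SCARNA8* rose by like amounts with both arms. *SCARNA14*, within *TIPIN*, went from 1.49 in mock cells to 8.06 after *miR-139-5p* and 7.86 after *miR-139-3p*, log2 fold changes of 2.44 and 2.40. *SCARNA8*, within *HAUS6*, went from 2.19 to 9.95 and 11.2, log2 fold changes of 2.18 and 2.35. *SCARNA1* went from 0.0832 to 0.331 and 0.306, and *SCARNA13*, a guide for spliceosomal RNA, from 8.57 to 29.9 and 34.2. The 3p and 5p values of these 4 genes differed by no more than the 0.28 between probes of a gene. *SCARNA1* was dim, and with the normexp correction its log2 fold changes were 0.48 after *miR-139-3p* and 0.54 after *miR-139-5p*.

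Other SCARNA genes differed between the arms. *SCARNA16*, within the noncoding gene *SNHG20* and the host of the hairpin *MIR6516* shown above, had signals of 6.45 in mock cells, 11.3 after *miR-139-5p* and 37.3 after *miR-139-3p*, with log2 fold changes of 0.80 and 2.53. *SCARNA17* had 6.27, 2.12 and 15.7, so it fell by 1.57 on the log2 scale after *miR-139-5p* and rose by 1.33 after *miR-139-3p*. *SCARNA2*, which no other gene spanned, had 0.216, 0.147 and 1.04, with log2 fold changes of -0.56 and 2.27. Relative to mock, the last 2 genes thus changed in opposite directions with the arms, and the fall of *SCARNA2* was -0.11 with the normexp correction.

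*SCARNA15* was not well above background in mock cells, and its change was a bound: at least 8.48-fold higher after *miR-139-3p* and at least 2.95-fold after *miR-139-5p*. The log2 values with the normexp correction were 0.73 and 0.24, and the latter did not pass. *SCARNA10*, which carries both kinds of box, had 2 probes that disagreed in size, with log2 fold changes of 2.19 and 1.11 after *miR-139-3p* and of 0.91 and 0.24 after *miR-139-5p*. *SCARNA5* and *SCARNA6* lie in one gene, *ATG16L1*, and did not rise with either arm. After *miR-139-3p* their log2 fold changes were 0.34 and 0.07, and *SCARNA6* was below 0 under other scalings, at -0.32 with quantile normalization and -0.18 with spike-in scaling. After *miR-139-5p* *SCARNA5* was at 0.13 and *SCARNA6* fell by 0.76, or by 0.02 with the normexp correction.

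Shorter and longer SCARNA genes differed after *miR-139-5p*. No SCARNA member had a length between 187 and 266 bases. Of 12 genes of 125 to 187 bases, 11 rose and 0 fell after *miR-139-5p*, with a median of 1.31 over the 11 well above background on both arrays. Of 9 genes of 266 to 421 bases, 3 rose and 3 fell, with a median of 0.13. With the normexp correction 9 of the shorter genes rose and 0 fell, and of the longer ones 1 rose and 1 fell. After *miR-139-3p* 12 of 12 shorter and 7 of 9 longer genes rose, with medians of 1.88 and 1.27. Across 20 SCARNA genes the correlation of length with the log2 fold change after *miR-139-5p* was Pearson r = -0.73 and Spearman rho = -0.63. After *miR-139-3p* these were -0.33 and -0.30. Pearson r after *miR-139-5p* was -0.21 across 89 SNORA genes, -0.02 across 134 SNORD genes and 0.03 across 243 members. The genes share the same 2 arrays and are not replicates, and the split by length was chosen after the values were seen.

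**Figure D3:**
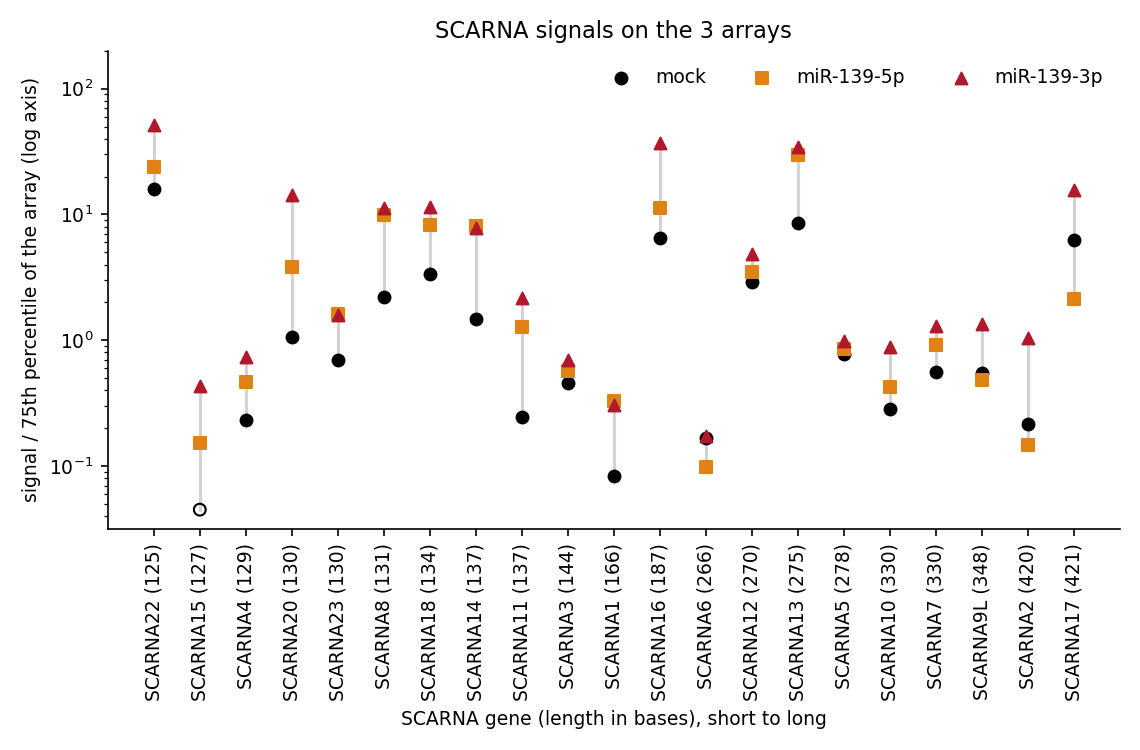
Signal of each SCARNA gene relative to the 75th percentile of the array, on a log axis, with genes ordered by length and an open symbol for a signal not well above background. Most of the shorter genes lie lowest on the mock array, while SCARNA17, SCARNA2, SCARNA6 and SCARNA9L, all at least 266 bases long, lie lowest on the miR-139-5p array.

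Among SNORA genes, *SNORA20* in *TCP1* had signals of 0.374 in mock cells, 0.800 after *miR-139-5p* and 2.66 after *miR-139-3p*, with log2 fold changes of 1.10 and 2.83. *SNORA48* in *EIF4A1* went from 22.6 to 42.3 and 110, log2 fold changes of 0.90 and 2.27. *SNORA2B* in *KANSL2* went from 11.4 to 20.4 and 56.6, log2 fold changes of 0.83 and 2.31. For these genes the *miR-139-5p* signal lay between the other two, as it did for *SNORA38B* (log2 fold changes of 0.57 and 2.52, the former 0.41 and short of the threshold with the normexp correction) and *SNORA2A* (1.19 and 2.44).

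The largest SNORA rises after *miR-139-5p* were those of *SNORA13*, *SNORA11B*, *SNORA11C*, *SNORA75* and *SNORA2A*, from 1.19 to 1.36. *SNORA13* went from 1.09 in mock cells to 2.81 after *miR-139-5p* and 4.38 after *miR-139-3p*. *SNORA21*, in the ribosomal protein gene *RPL23*, was a member with a rise after *miR-139-3p* alone, at 6.89 in mock cells, 8.09 after *miR-139-5p* and 29.8 after *miR-139-3p*. *SNORA55* was at least 2.55-fold higher after *miR-139-3p*, but at 0.25 on the log2 scale with the normexp correction.

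With the scaling used here 1 SNORA gene fell, *SNORA10*, within *RPS2*, from 8.16 in mock cells and 7.72 after *miR-139-5p* to 5.44 after *miR-139-3p*, a log2 fold change of -0.59. With the percentile over detected probes 0 SNORA genes fell, and with spike-in scaling 6 did. The next lowest, *SNORA59B*, *SNORA24*, *SNORA58* and *SNORA70B*, lay between -0.38 and -0.32 and did not pass. *SNORA24* was at 0.50 after *miR-139-5p*, just short of the threshold. After *miR-139-5p* the lowest SNORA genes included *SNORA14A* at -0.45, *SNORA69* at -0.30 and *SNORA70D* at -0.16, and none of the class passed as a fall.

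SNORA genes that share a number in their symbol were also set side by side. Whether copies shared signal between probes was not tested. As 72.1% of measured SNORA genes rose after *miR-139-3p*, a family whose measured members all rose does not stand apart by that count. The 3 *SNORA2* genes in *KANSL2* had log2 fold changes of 0.83 to 2.44 after *miR-139-3p*, the 3 *SNORA5* genes in *TBRG4* 1.56 to 1.88, the 3 measured *SNORA11* genes 1.47 to 2.08, the 3 measured *SNORA71* genes 0.57 to 0.80 and the 3 *SNORA80* genes 1.21 to 1.81. After *miR-139-5p* the *SNORA2* genes ranged from -0.04 to 1.19. The 6 measured *SNORA70* genes ranged from -0.32 to 0.30 after *miR-139-3p*, with a median of 0.02 that was -0.23 with spike-in scaling, where 1 of them fell. After *miR-139-5p* the 7 *SNORA70* genes ranged from -0.16 to 0.00. With the scaling used here 0 of them rose or fell.

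SNORD genes changed in both directions. *SNORD42A*, in the ribosomal protein gene *RPL23A*, had signals of 0.215 in mock cells, 0.0840 after *miR-139-5p* and 1.83 after *miR-139-3p*, with log2 fold changes of -1.36 and 3.09. After the normexp correction these were -0.29 and 1.63. *SNORD42B* and *SNORD4A* in the same host lay between -0.03 and 0.08 after *miR-139-3p*. *SNORD74*, in the noncoding gene *GAS5*, had 0.899, 0.676 and 5.14, log2 fold changes of -0.41 and 2.52. The other 6 measured SNORD genes of *GAS5* lay between -0.31 and 0.48, so *SNORD74* stood alone in its host. *SNORD83A*, in *RPL3*, had 0.668, 1.75 and 2.57, log2 fold changes of 1.39 and 1.94. *SNORD93*, in *SNHG26*, had 0.180, 0.0947 and 0.197, log2 fold changes of -0.93 and 0.13, and with the normexp correction the former was -0.19 and did not pass. *SNORD25*, in *SNHG1*, was the fifth lowest SNORD gene after *miR-139-3p*, at -0.42, and did not pass.

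*SNORD86*, which lies in *NOP56*, the gene of a box C/D core protein, fell furthest of all members. Its signal was 18.0 in mock cells, 14.5 after *miR-139-5p* and 4.65 after *miR-139-3p*, a log2 fold change of -1.96 with the 3p arm and -0.31 with the 5p arm. *SNORD11* and *SNORD11B*, in *NOP58*, the gene of another core protein, were at -0.92 and -0.90 after *miR-139-3p*. *SNORD19*, in *GNL3*, was at -0.77 after *miR-139-3p* and 0.53 after *miR-139-5p*. With the normexp correction *SNORD11B* was at -0.22 and *SNORD19* at -0.09 after *miR-139-3p*. The small RNAs *SNORD44* and *SNORD48*, often used as references in PCR assays of small RNAs, were at 0.06 and -0.28 after *miR-139-3p* and at 0.01 and 0.30 after *miR-139-5p*. Of the bounds, *SNORD82* was at least 2.97-fold and *SNORD9* at least 2.08-fold higher after *miR-139-3p*, while with the normexp correction they were at 0.34 and 0.19 on the log2 scale and did not pass. *SNORD3B-1*, a copy of the U3 RNA that acts in the cleavage of ribosomal RNA precursors, had 2 probes at 0.75 and 0.91 after *miR-139-3p* and at 0.17 and 0.35 after *miR-139-5p*.

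Tandem SNORD copies of imprinted regions gave several of the largest changes. *SNORD113* and *SNORD114* copies lie in the *DLK1* and *MEG3* region, expressed from the maternal chromosome, and *SNORD115* and *SNORD116* copies in the Prader-Willi region, expressed from the paternal one. They are known as orphan RNAs without an established target in ribosomal RNA. Of 29 *SNORD114* copies 18 of 19 with a value rose after *miR-139-3p*, with a median of 1.29. After *miR-139-5p* 15 of 20 rose, with a median of 0.64. In the same order, 35.4% and 10.7% of all names rose, and 44.4% and 11.8% of names dimmer than the median name. *SNORD114-3* had signals of 0.314 in mock cells, 0.982 after *miR-139-5p* and 1.02 after *miR-139-3p*, log2 fold changes of 1.64 and 1.70. *SNORD114-11* had 0.0650, 0.165 and 0.300, log2 fold changes of 1.34 and 2.20, which were 0.26 and 0.58 with the normexp correction. *SNORD114-13* was the exception after *miR-139-3p*, at 0.0699, 0.165 and 0.0639, log2 fold changes of 1.24 and -0.13. With quantile normalization the latter was -0.68, past the threshold as a fall, and with the normexp correction the former was 0.27 and did not pass.

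These copies were dim, and 5 of the 19 *SNORD114* values rested on bounds after *miR-139-3p*, for example at least 3.40-fold for *SNORD114-17*, which was at 0.41 on the log2 scale with the normexp correction. Under that correction 10 *SNORD114* copies rose after *miR-139-3p* and 2 after *miR-139-5p*. After *miR-139-3p* the bounds on the log2 scale were 1.68 for *SNORD114-2*, 1.40 for *SNORD114-6*, 1.27 for *SNORD114-29* and 1.15 for *SNORD114-31*. After *miR-139-5p* those past 1 included 2.42 for *SNORD114-29*, 1.70 for *SNORD114-2*, 1.33 for *SNORD114-30* and 1.01 for *SNORD114-31*. Under the normexp correction *SNORD114-29* was at 0.26 and 0.49 after *miR-139-3p* and *miR-139-5p*. Of 8 *SNORD113* copies 5 had a value, 4 of them as bounds, which were 1.51 for *SNORD113-9* and 1.12 for *SNORD113-2* after *miR-139-3p* and 1.42 for *SNORD113-9* after *miR-139-5p*, among others. *SNORD113-3* was well above background on all arrays at 0.0732, 0.273 and 0.202, with a log2 fold change after *miR-139-5p* of 1.90, the highest of the SNORD genes well above background on both arrays, and 1.47 after *miR-139-3p*. With the normexp correction these were 0.39 and 0.34, and 0 of the 5 *SNORD113* copies with a value rose in either comparison.

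*SNORD116* copies differed between the arms. After *miR-139-5p* all 7 copies measured on both arrays lay below 0 and 5 fell, with a median of -0.58. Of all names 12.1% fell. After *miR-139-3p* 4 of 8 with a value rose and 0 fell, with a median of 0.91, where 35.4% of all names rose and 21.8% fell. *SNORD116-19* had signals of 5.31 in mock cells, 2.19 after *miR-139-5p* and 9.98 after *miR-139-3p*, log2 fold changes of -1.28 and 0.91. *SNORD116-6* had 0.911, 0.413 and 2.88, log2 fold changes of -1.14 and 1.66. Both showed the same order, lowest with the 5p arm and highest with the 3p arm.

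*SNORD116-11* had 0.254, 0.0827 and 1.46, log2 fold changes of -1.62 and 2.52. *SNORD116-12* had 0.148, 0.104 and 1.37, log2 fold changes of -0.51 and 3.21. The copies *SNORD116-26*, *SNORD116-27* and *SNORD116-29* lay between -0.02 and 0.42 after *miR-139-3p*. With the normexp correction 2 copies fell after *miR-139-5p* and 1 lay above 0, with a median of -0.17, and *SNORD116-11* at -0.31 and *SNORD116-12* at -0.12 no longer passed. After *miR-139-3p* 4 copies rose with that correction, with a median of 0.80. Under the alternative settings the lowest values after *miR-139-3p* were 1.37 for *SNORD116-11* and 1.33 for *SNORD116-12*. None of the 10 *SNORD115* copies was well above background on any pair of arrays compared. Without the copies of these 4 families, 57 of 118 SNORD genes rose (48.3%, against 47.6% of other noncoding genes and 35.4% of all names) and 4 fell after *miR-139-3p*, with a median of 0.46, and 10 of 119 rose (8.40%) and 5 fell after *miR-139-5p*, with a median of 0.16. With the scaling used here the share of 8.40% did not exceed the 10.7% of all names, and with the normexp correction 3 rose after *miR-139-5p*. With spike-in scaling 24 of 117 rose and 4 fell after that arm, where 17.3% of all names rose. After *miR-139-3p* 17 of 117 rose with the normexp correction, with a median of 0.23, where 11.8% of all names rose. With spike-in scaling 36 of 119 rose and 9 fell after *miR-139-3p*, with a median of 0.22, where 25.4% of all names rose.

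**Figure D4:**
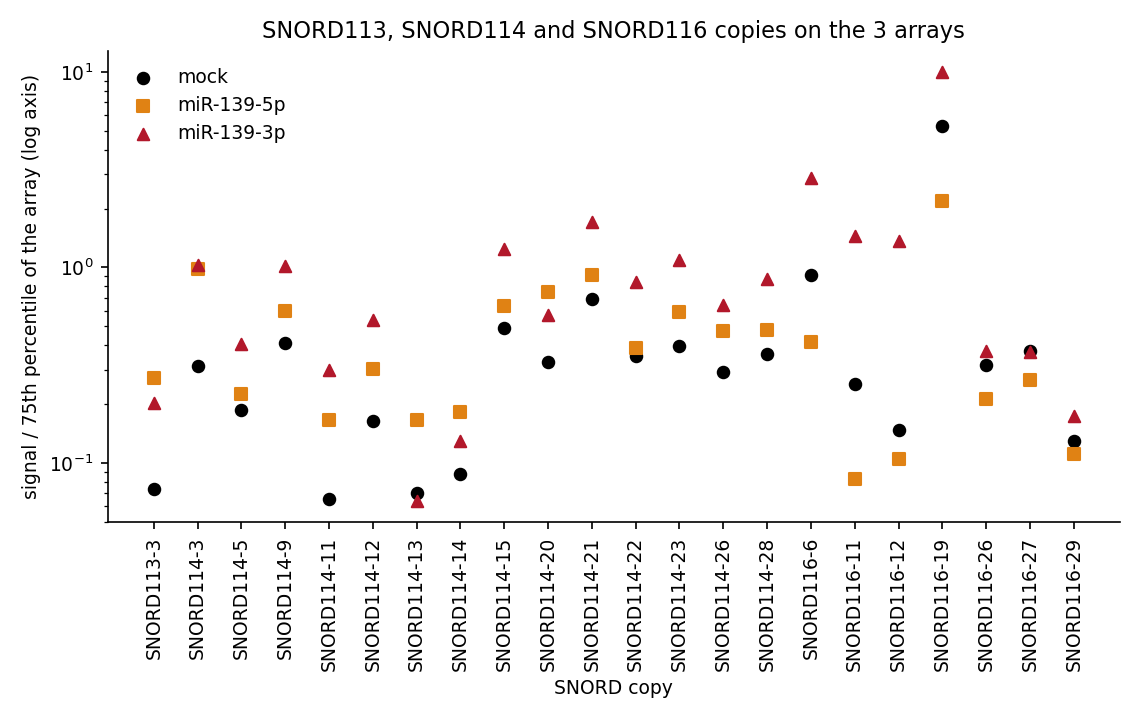
Signal of the SNORD113, SNORD114 and SNORD116 copies well above background on both arrays of a comparison, divided by the 75th percentile of its array, on a log axis. SNORD116-6, SNORD116-11, SNORD116-12 and SNORD116-19 lie lowest on the miR-139-5p array and highest on the miR-139-3p array, while the SNORD114 copies lie above mock on the miR-139-5p array.

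The host genes were set beside the small RNAs they span. A host is here the shortest spanning RefSeq gene among those with a value after *miR-139-3p*, or the shortest of all where none had one. By this rule 300 members had a host. After *miR-139-3p* 14 of 134 measured hosts rose (10.4%) and 33 fell (24.6%), with a median of -0.07, where 35.4% of all names rose and 21.8% fell. Of protein-coding genes 23.0% rose and 30.5% fell, with a median of -0.15. With spike-in scaling, which turned the share of all names that fell to 31.6%, 6 hosts rose and 59 fell, and with no scaling, where 7292 of 24303 names fell, 6 and 57. Of 18 SCARNA hosts 2 rose and 9 fell, with a median of -0.69. Those that rose were *SNHG21* and *SNHG22*. *SNHG21*, which spans *SCARNA15*, was at 0.92, and *SNHG22*, which spans *SCARNA17*, was not well above background in mock cells and rose by at least 2.20 on the log2 scale, though not past the threshold with the normexp correction. After *miR-139-5p* 4 of 137 hosts rose and 8 fell, with a median of 0.04, where 10.7% of all names rose and 12.1% fell. Spike-in scaling turned this balance around: 13 hosts rose and 5 fell after that arm, with a median of 0.17. Of all names 17.3% then rose. Without scaling 3 hosts rose and 11 fell after *miR-139-5p*. In 193 pairs of member and host measured on both arrays, the member lay above its host in 167 after *miR-139-3p*, and the median difference was 0.82. Across these pairs, which share 120 hosts and the same 2 arrays, Pearson r was 0.03 and Spearman rho 0.02. For SCARNA genes all 17 pairs had the member above the host, with a median difference of 2.29, for SNORA genes 66 of 76, with 1.12, and for SNORD genes 84 of 100, with 0.60. *SCARNA10* had a log2 fold change of 1.65 where its host *NCAPD2* had -1.54, and *SCARNA14* 2.40 where *TIPIN* had -1.16. After *miR-139-5p* the member lay above its host in 136 of 201 pairs, with a median difference of 0.18. These were 15 of 18 SCARNA, 67 of 81 SNORA and 54 of 102 SNORD pairs, and the median difference of the SNORD pairs was 0.04.

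Small RNAs of one host could be compared across class. In 6 hosts with both SNORA and SNORD members measured after *miR-139-3p*, the SNORA mean lay above the SNORD mean in 5, by a median of 0.60, with *RPL5* as the exception. In *NOP56*, itself at -0.88, *SNORA51* rose by 1.64 while its 4 SNORD members ran from -1.96 upward with a median of 0.04. In *EIF4A1*, at -0.18, *SNORA48* and *SNORA67* had a median of 1.89 and *SNORD10* was at 0.59. After *miR-139-5p* the SNORA mean was higher in 6 of 6 hosts, by a median of 0.30. The differences of 0.08 in *RPL5* and 0.09 in *RPS12* lay within the 0.15 between probes of a gene. So did that of 0.04 in *RPS12* after *miR-139-3p*, against 0.28. Apart from *TAF1D*, each host had a single measured gene in the SNORA class, the SNORD class or both. Among hosts with SNORD members alone, the 4 of *RPL13A* stayed between 0.01 and 0.33 after *miR-139-3p*, the 3 of *RABGGTB* lay between 0.76 and 1.10, and the 8 of *SNHG1* ranged from -0.42 to 1.80.

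**Figure D5:**
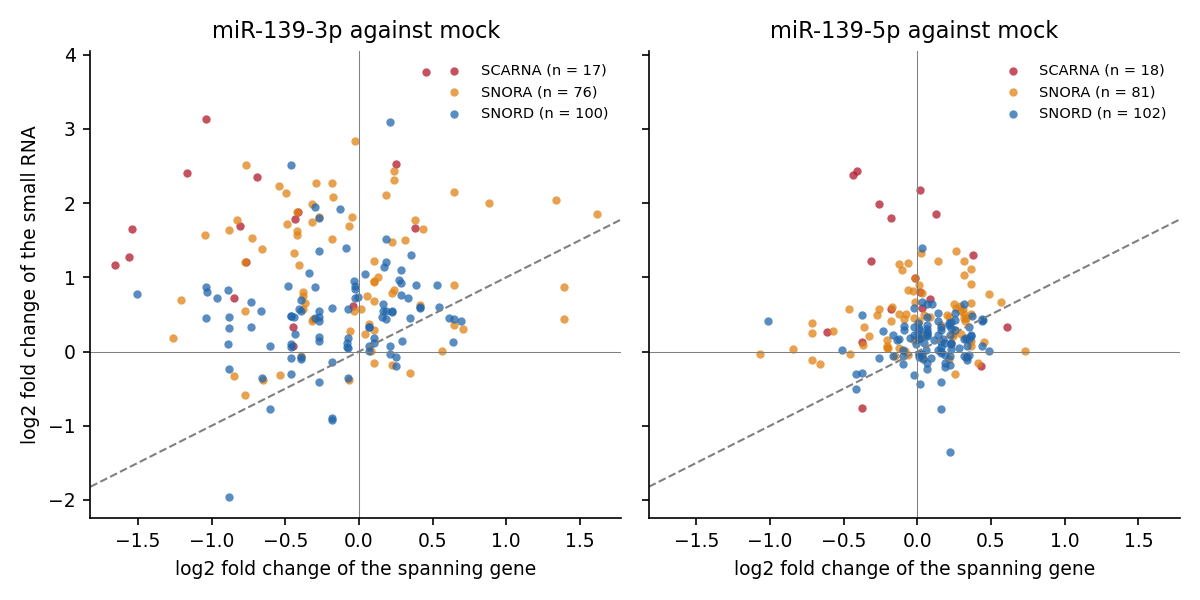
Log2 fold change of each small RNA against that of the gene that spans it, for both transfections; the dashed line marks equal change. After miR-139-3p 167 of 193 points lie above the line, including all 17 SCARNA points, and after miR-139-5p 136 of 201 do.

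The genes of the proteins that bind and assemble these RNAs were measured beside them. Of 29 with a value after *miR-139-3p*, 0 rose and 10 fell (34.5%), with a median of -0.32, where 23.0% of protein-coding genes rose and 30.5% fell. The count of rises was 2 with the percentile over detected probes and 3 with quantile normalization. Among the box C/D core proteins the methyltransferase *FBL* had signals of 414 in mock cells, 415 after *miR-139-5p* and 230 after *miR-139-3p*, a log2 fold change of -0.85 with the 3p arm, and *NOP56* was at -0.88, while *NOP58* at -0.18 and *SNU13* at -0.37 did not pass. Among the box H/ACA core proteins *NHP2* fell by 0.70, while *DKC1* at -0.48, *GAR1* at -0.35 and *NOP10* at 0.24 did not pass. The assembly factors *RUVBL1* and *RUVBL2*, helicase-like ATPases, were at -0.93 and -1.31 after *miR-139-3p* and at -0.78 and -0.55 after *miR-139-5p*. Of 10 measured assembly factors 3 fell after *miR-139-3p*, and *PIH1D1* at 0.46 and *RPAP3* at 0.27 lay above 0 without passing.

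*WRAP53*, which brings RNAs to the Cajal body, went from 1.18 in mock cells to 0.869 after *miR-139-5p* and 0.454 after *miR-139-3p*, a log2 fold change of -1.38 with the 3p arm. The nucleolar phosphoproteins *NOLC1* and *TCOF1* were at -1.21 and -1.64, and *COIL*, the marker protein of Cajal bodies, was at 0.38. *PARN*, an exonuclease that trims tails from the 3′ ends of RNAs, went from 6.60 to 3.17 and 1.88, log2 fold changes of -1.06 with the 5p arm and -1.81 with the 3p arm. *TENT4B*, a polymerase that adds such tails, was at 0.91 after *miR-139-5p* and 0.23 after *miR-139-3p*. After *miR-139-5p* 2 of 30 of these genes rose (6.67%) and 3 fell (10%), with a median of 0.05, where 10.6% of protein-coding genes rose and 12.2% fell. With spike-in scaling, where 31.6% of all names fell, 16 of the 29 fell after *miR-139-3p*.

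Other RNAs that usually lack a poly(A) tail were measured for comparison. Of 13 with a value, 8 rose and 1 fell after *miR-139-3p*, with a median of 0.73, and 1 rose and 1 fell after *miR-139-5p*, with a median of 0.14. *RNU6ATAC*, of the minor spliceosome, had signals of 0.669 in mock cells, 0.677 after *miR-139-5p* and 3.04 after *miR-139-3p*, a log2 fold change of 2.18 with the 3p arm. *RNU11* was at 1.11, *RNU4ATAC* at 0.99, *TERC*, the telomerase RNA with a box H/ACA domain, at 0.87, and *RN7SK* at 0.70 after *miR-139-3p*. *RN7SL1*, of the signal recognition particle, fell with both arms, by 0.98 with the 3p arm and 1.51 with the 5p arm. The share of these RNAs that rose after *miR-139-3p*, 61.5%, was near the 63.8% of the members. Of all names 35.4% rose, and of other noncoding genes 47.6%. After *miR-139-5p* 7.69% of these RNAs rose, against 29.4% of the members and 10.7% of all names. With the normexp correction 7 of the 13 rose after *miR-139-3p*, against 37.5% of the members. The role of the labelling or of the RNA fraction in these RNAs or in the members was not tested.

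The hairpins printed above lay in members with unlike changes. *SCARNA16* and *SNORA36B* rose after *miR-139-3p* by 2.53 and 1.66 and were at 0.80 and 0.50 after *miR-139-5p*, whereas *SNORA81* was at 0.41 and 0.05 with the 3p and the 5p arm. *SNORA84*, which holds *MIR3651*, was at 1.53 and 0.64 in that order, and *SNORA2C*, which holds *MIR1291*, at 0.83 and -0.04. The mature miRNAs themselves were not analysed here.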

How the data were processed

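Total RNA of A549 cells, mock-transfected or transfected with either arm of miR-139, was labelled with Cy3 and hybridised to 1 array per condition. The authors deposited spot intensity files from Feature Extraction 12.1.1.1, with the background already taken off and the smallest signals set to positive numbers, without normalization between arrays. They also deposited a log2 table, found here to hold quantile-normalized log2 signals and used as an alternative. Samples were grouped by their labels.

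From the intensities, each processed signal was divided by the 75th percentile of the non-control spots of its array and log2 transformed (Python 3.11.15, pandas 2.3.3). Outlier spots were left out, 614 on the mock, 935 on the *miR-139-5p* and 1526 on the *miR-139-3p* array. A probe counted as well above background where at least 50% of its spots were, as was true of 49.9%, 48.1% and 53.1% of all spots on these arrays. No spot was saturated. Probes of a gene well above background on both arrays were averaged, and otherwise a bound was taken from the brightest probe measured on 1 array. Probes were named through RefSeq accessions (GRCh38.p14). The array was designed on hg19, so no member coordinates are given. The annotation gives no strand, so hosts were found by span on either strand, where a match of strand had been planned. Spanning genes with a value after *miR-139-3p* were preferred. Hairpin bounds lie within the members by coordinates of one build.

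No test was possible with 1 array per condition. The members and all lists were chosen with earlier results of these data known. Members were named by rule: the 5 largest rises and falls of each class and comparison, bounds past 1 and a set fixed by role. Of their hosts and the protein and RNA lists some are named and the rest counted. Members named beyond that rule, among them those in families, in hosts and near the threshold, were chosen after their values were seen. *SNORD3A*, *SNORD118*, *SNORD13*, *SNORA73A*, *SNORA73B* and *SCARNA9* were not analysed here. Alternatives changed the background correction (limma 3.58.1, normexp with an offset of 50), scaling, filters, probe choice, threshold, values and gene type. The calculation was tested on simulated data.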

Additional observations from a re-analysis of the deposited data

Results flagged for a closer look

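Some members rose with one arm and fell with the other, and the difference between the arms was not tested. The values are log2 fold changes after *miR-139-3p* minus those after *miR-139-5p*, and as both comparisons share the mock array this equals the difference between the 2 transfected arrays, which lay on different slides. The difference was 4.44 for *SNORD42A*, 4.14 for *SNORD116-11*, 3.72 for *SNORD116-12*, 2.80 for *SNORD116-6* and 2.19 for *SNORD116-19*. It was 2.89 for *SCARNA17*, 2.83 for *SCARNA2* and 1.38 for *SNORD105*. *SNORD19* went the other way, at -1.29. With the normexp correction *SNORD42A* at -0.29, *SNORD116-11* at -0.31, *SNORD116-12* at -0.12 and *SCARNA2* at -0.11 did not pass as falls after *miR-139-5p*. *SNORD105* did not either, as 0 SNORD genes outside the imprinted copies fell with it. *SNORD19* was at -0.09 after *miR-139-3p* with that correction, and after *miR-139-5p* it ranged from 0.23 to 0.66 over the settings. *SNORD105*, in *PPAN*, had signals of 0.153 in mock cells, 0.108 after *miR-139-5p* and 0.280 after *miR-139-3p*.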

How the results depend on the processing

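Medians past the threshold kept their direction. The host median crossed 0 with the percentile over detected probes after *miR-139-3p* (0.07) and with no scaling after *miR-139-5p* (-0.04), and the protein median with no scaling after *miR-139-5p* (-0.02). In all, 200 of 220 alternative values stayed within the spread between probes or within 1.5 times the count. The 20 that moved were as follows. With the normexp correction, 96 members rose and 3 fell after *miR-139-3p*, with medians of 0.34 over all members, 0.96 for SCARNA, 0.60 for SNORA and 0.26 for SNORD, and 34 rose and 3 fell after *miR-139-5p*, with medians of 0.49 for SCARNA and 0.25 for SNORA. The number that fell after *miR-139-3p* was 10 with quantile normalization, 15 with spike-in scaling, 14 with no scaling and 10 with the deposited log2 values. At a threshold of 1, 102 rose and 1 fell after *miR-139-3p*, and 31 rose and 5 fell after *miR-139-5p*. Of the alternatives chosen after seeing the data, removal of the lowess trend with signal gave 10 fallen after *miR-139-3p*, and leaving out the *SNORD113* to *SNORD116* copies gave 8 fallen after *miR-139-5p*. Among 63 single genes, 1345 values stayed, 111 moved nearer to 0, 32 moved farther from it and 10 crossed it, none of them from past the threshold.

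Scaling moved the share of names that rose after *miR-139-3p*: it was 41.8% of all names and 71.6% of members with a percentile over detected probes, 27.2% and 55.9% with quantile normalization, 25.4% and 50.4% with spike-in scaling, and 26.9% and 53.1% with none. The median of all names was 0.23 with the first and -0.15 with spike-in scaling, where it was 0.09. After *miR-139-5p* spike-in scaling gave 17.3% and 42.3%, with a median of 0.14. The order SCARNA, SNORA, SNORD of the class medians held under these settings in both comparisons. By gene type, RefSeq lists no SCARNA member as a snoRNA, so that alternative gave no SCARNA value. The cause of these moves was not tested. Dim signals limit the SNORD copies. No paired analysis was possible because each condition had 1 array and no test was made.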
